A study of Homo sapiens with 5 samples.

Results

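The Notch pathway was followed through 8 of its genes in HEK293A cells, an adherent human embryonic kidney line, with and without an siRNA directed at IRE1α. The 8 genes are the ligands JAG1 and JAG2, the receptors NOTCH1, NOTCH2 and NOTCH3, the DNA-binding factor RBPJ and the target repressors HES1 and HEY1. They were taken by name from the deposited abundance table, and 8 of 8 were present among 10504 genes. HEY1 was selected on its RNA change in these same data, where it stood among the lowest, and the other members by name as pathway genes with those values known, so its RNA, footprint and translational efficiency values are descriptions and support nothing further. Cells carried either a control siRNA (siCon, 2 samples) or an siRNA labelled siIRE1a (2 samples), directed at the endoplasmic reticulum stress sensor IRE1α (gene ERN1), and both groups were starved and then given FBS, fetal bovine serum. Another sample, labelled as multiplexed, holds the ribosome footprints of both groups. RNA-seq measures mRNA abundance and Ribo-seq the abundance of mRNA fragments covered by ribosomes (footprints). Translational efficiency (TE) is the ratio of footprint to RNA abundance. The table holds 1 value per group and assay, so RNA and footprint differences below have no replicate error and no test, and all are siIRE1a relative to siCon.

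Notch signalling passes between touching cells. A Jagged or Delta ligand on one cell pulls on a Notch receptor on its neighbour, the ADAM proteases and then γ-secretase cut the receptor, and the released intracellular domain enters the nucleus. There it joins RBPJ and a Mastermind coactivator and turns RBPJ from a repressor into an activator of HES and HEY genes, whose products are basic helix-loop-helix repressors. The receptors and ligands are made and glycosylated in the endoplasmic reticulum, while RBPJ, HES1 and HEY1 are nuclear proteins.

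RBPJ binds DNA containing the letters GTGGGAA, and the promoters of 3 measured HES and HEY genes are shown because their genes share these letters but not one direction of RNA difference. Each window, from RefSeq on GRCh38.p14, runs from 250 bases before the annotated start to 50 after it, 5′ to 3′ on the gene's strand, with capitals marking GTGGGAA or its reverse complement TTCCCAC. HES1 lies at chr3:194135898-194136197 on the plus strand, HES4 at chr1:1000048-1000347 on the minus strand and HEY2 at chr6:125749382-125749681 on the plus strand.
HES1: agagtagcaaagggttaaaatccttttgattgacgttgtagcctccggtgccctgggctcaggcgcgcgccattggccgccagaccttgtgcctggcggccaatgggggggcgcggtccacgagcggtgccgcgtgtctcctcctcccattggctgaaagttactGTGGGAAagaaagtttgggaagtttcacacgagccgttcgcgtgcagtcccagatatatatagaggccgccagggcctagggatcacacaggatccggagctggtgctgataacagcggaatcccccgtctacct
HES4: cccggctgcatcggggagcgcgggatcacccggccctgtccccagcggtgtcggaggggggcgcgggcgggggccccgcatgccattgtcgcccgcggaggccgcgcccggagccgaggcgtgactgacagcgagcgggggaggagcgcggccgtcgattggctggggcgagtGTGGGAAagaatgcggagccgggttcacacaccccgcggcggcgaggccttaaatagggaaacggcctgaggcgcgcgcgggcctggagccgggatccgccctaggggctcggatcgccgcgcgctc
HEY2: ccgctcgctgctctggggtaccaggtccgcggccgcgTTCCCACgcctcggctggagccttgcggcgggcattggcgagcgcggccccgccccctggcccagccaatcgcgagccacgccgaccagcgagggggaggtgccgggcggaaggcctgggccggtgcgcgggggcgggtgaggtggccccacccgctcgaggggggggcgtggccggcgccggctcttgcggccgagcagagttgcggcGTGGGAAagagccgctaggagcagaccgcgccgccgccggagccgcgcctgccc

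The match in HES1 began 85 bases before the start and that in HES4 77 bases before it, both on the gene's own strand. HEY2 held 2 matches, at 213 and 4 bases before the start, the first of them as TTCCCAC. On both strands, GTGGGAA was found in 6.25% of 35116 promoter windows and in at least 1 window of 7.62% of 27305 genes. HEY1 was not searched, because its window was not used here. Of the 9 other target repressor and feedback genes, 5 held the letters (HES1, HES4, HES5, HEY2 and HEYL), as did 9 of the 63 genes of the wider pathway list described below. RBPJ itself held 2 matches in 1 of its annotated windows (chr4:26319496-26319795), and no window of JAG1, JAG2, NOTCH1, NOTCH2 or NOTCH3 held the letters. A match is a description of the sequence and not of binding.

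In siIRE1a cells, ERN1 RNA was 0.0736 against 0.121 in siCon cells (1.65-fold lower) and its footprints 0.275 against 0.402 (1.46-fold lower). These are low values, at percentiles 13.3 and 11.7 of all genes in siCon cells. The data hold no measure of IRE1α protein. The 2 siCon and 2 siIRE1a libraries had between 28769136 and 49112701 clusters, and the number of reads behind each abundance value is unknown. Of 9 markers of the HEK293 line, 6 were in the tables, with VIM and KRT8 the most abundant in footprints, while NEFM, PAX2 and LHX1 were not listed. The blood, liver and endothelial markers were not in the tables (0 of 5, 0 of 3 and 0 of 3), and of 4 fibroblast markers only COL1A1 was. Across all genes the median log2 change was −0.011 in RNA and −0.082 in footprints.

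Among the 8 members, the ligand and receptor genes lay on one side and RBPJ, HES1 and HEY1 on the other. The split did not extend to the wider pathway list described below. There, 7 of 9 genes of the nuclear complex and its coactivators had more RNA in siIRE1a cells. HES4 also had more RNA (log2 0.52), and the ligand DLL3 had less (log2 −0.57). All 5 of JAG1, JAG2, NOTCH1, NOTCH2 and NOTCH3 had more RNA and more footprints in siIRE1a cells, and all 3 of RBPJ, HES1 and HEY1 had less of both, although centring on the median of all genes turned the footprint changes of RBPJ (0.0013) and HES1 (0.045) positive. Among all genes, 2100 were above 0 in both assays and 4103 below 0 in both. A difference of at least 1.5-fold in RNA was seen upward in 3 of the 8 members, against 3.86% of all genes, and downward in 1, against 6.70%. For footprints these counts were 1 upward, against 0.847% of all genes, and 0 downward, against 0.904%. With the GC trend described below removed, the RNA changes of JAG1, NOTCH1 and NOTCH3 were 0.54, 0.47 and 0.43, so that 0 of the 3 reached 1.5-fold (0.58 on the log2 scale). Since the members were picked with the RNA values known, nothing is read from these counts.

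JAG1, the Jagged ligand that activates Notch in neighbouring cells, had RNA of 0.318 in control and 0.479 in siIRE1a cells. The second value was 1.51-fold higher (log2 0.59). Its footprints were 1.33 and 2.01, 1.52-fold higher (log2 0.60). RNA and footprints of JAG1 thus differed by nearly the same factor, and its TE was 4.17 and 4.20. The authors' deposited table gave JAG1 a log2 change in TE of 0.032 with an adjusted p of 0.921. JAG1 ranked 81 from the top of 10504 genes by footprint change and 385 by RNA change. Its RNA difference sat barely past 1.5-fold.

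JAG2, the second Jagged ligand, was at the floor of the table. Its RNA was 0.0370 and 0.0463 and its footprints 0.120 and 0.134 (log2 0.32 and 0.15). Its percentile among the siCon values of all genes was 1.00 in RNA and 1.03 in footprints, so nearly every gene was higher. The authors' deposited table held no adjusted p for JAG2. A pair of Delta ligands were also listed, chosen for mention after their values were seen because they complete the family. DLL1 had RNA of 0.0470 and 0.0813 (log2 0.79) and footprints of 0.158 and 0.244 (log2 0.62). DLL3, a divergent Delta protein that does not activate Notch in trans, had RNA of 0.0527 and 0.0355 (log2 −0.57) and footprints of 0.373 and 0.433 (log2 0.22). All 4 measured ligands had more footprints in siIRE1a cells, as did 3372 of all 10504 genes. Of these ligands, 3 lay low and without an adjusted p in the authors' deposited table. DLL4, DLK1 and DLK2 were not in the tables.

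The receptors were all higher in both assays. NOTCH1 RNA was 0.448 and 0.732, 1.64-fold higher (log2 0.71), and its footprints were 1.04 and 1.53, 1.48-fold higher (log2 0.56). NOTCH2 was the most abundant receptor in siCon cells, with RNA of 0.582 and 0.764 (log2 0.39) and footprints of 1.86 and 2.15 (log2 0.21). NOTCH3 was the least abundant, with RNA of 0.210 and 0.333 (log2 0.67) and footprints of 0.509 and 0.691 (log2 0.44). The order NOTCH2, NOTCH1, NOTCH3 held in both groups and both assays, and in RNA the gap between NOTCH2 and NOTCH1 was 0.764 against 0.732 in siIRE1a cells. With 1 value per group it cannot be said whether such neighbours differ. NOTCH4 was not in the tables.

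In each receptor the RNA difference was larger than the footprint difference. TE went from 2.31 to 2.09 for NOTCH1, from 3.20 to 2.81 for NOTCH2 and from 2.43 to 2.07 for NOTCH3. These differences did not pass the authors' test. In the authors' deposited table the log2 changes were −0.15 (adjusted p = 0.573), −0.18 (adjusted p = 0.395) and −0.22 (adjusted p = 0.450), with back-calculated standard errors of 0.161, 0.132 and 0.186. NOTCH2 shares its first exons with the near-identical NOTCH2NL genes, so its values are uncertain. The entry NOTCH2NL itself went from 0.407 to 0.341 in RNA and from 1.44 to 1.51 in footprints, and how reads common to both were assigned is not stated.

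RBPJ, the DNA-binding partner of the Notch intracellular domain, had RNA of 1.42 in siCon and 1.05 in siIRE1a cells, 1.36-fold lower (log2 −0.44). Its footprints were 6.21 and 5.87 (log2 −0.080), close to the median of all genes (−0.082). TE of RBPJ was 4.37 and 5.61, and the change of 0.38 in the authors' deposited table did not pass the threshold (adjusted p = 0.0706). RBPJ has processed pseudogenes, and whether reads shared with them were counted is not stated.

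HES1, a repressor whose own expression oscillates in many cells, had RNA of 1.35 and 1.18 (log2 −0.20) and footprints of 6.85 and 6.68 (log2 −0.037). Relative to the median of all genes the footprint difference of HES1 had the opposite sign (0.045). Its TE was 5.08 and 5.68, with a log2 change of 0.16 in the authors' deposited table (adjusted p = 0.678). As deposited, its RNA and footprint differences were the smallest of the 8, but its TE change was not, with JAG1 at 0.032. That order did not hold after median centring, where the footprint change of RBPJ was 0.0013, or with the GC trend removed, where the RNA change was −0.26 for HES1 and −0.061 for RBPJ.

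HEY1, a repressor best known from heart and vessel development, had the largest RNA difference of the 8, while its footprint difference was smaller in size than those of JAG1 and NOTCH1. Its RNA was 3.28 in siCon and 1.37 in siIRE1a cells, 2.39-fold lower (log2 −1.26). Only 8 of the 10504 genes had a lower RNA change, and of these 8 just 1 averaged 1 or more in RNA (ZMAT2, named after its values were seen). Footprints of HEY1 were 10.4 and 7.60, 1.36-fold lower (log2 −0.45), which placed it 279 from the bottom. The footprint difference was therefore smaller than that of the RNA, and TE went from 3.16 to 5.53. The authors' deposited table gave a log2 change in TE of 0.83 with an adjusted p of 1.16e-04 and a back-calculated standard error of 0.165. This TE value contains the RNA value by which HEY1 was chosen and so adds no independent evidence.

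In control cells HEY1 ranked above the other members in both RNA and footprints but not in TE. Its siCon RNA stood at percentile 95.4 of all genes and its footprints at 87.6, while its TE stood at 29.9. In siIRE1a cells the percentiles were 86.3, 84.4 and 59.6. After the difference the RNA of HEY1 (1.37), HES1 (1.18) and RBPJ (1.05) lay close together, and their TE values of 5.53, 5.68 and 5.61 nearly coincided. In siCon cells those TE values had been 3.16, 5.08 and 4.37.

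The other measured repressors of the family were chosen for mention because they complete it. HES4 lay opposite to HEY1 in both assays, HEYL lay on the same side with smaller differences, and HEY2 was close to 0. HES4, a human HES gene whose promoter is printed above, had RNA of 1.40 and 2.01 (log2 0.52) and footprints of 8.29 and 10.8 (log2 0.39). HEY2, a close relative of HEY1, had RNA of 0.488 and 0.455 (log2 −0.10) and footprints of 1.09 and 1.11 (log2 0.026). HEYL had RNA of 0.172 and 0.148 (log2 −0.22) and footprints of 0.568 and 0.493 (log2 −0.20). NRARP, a feedback inhibitor that is itself a Notch target, had RNA of 6.85 and 6.31 (log2 −0.12) and footprints of 6.69 and 7.97 (log2 0.25). Of the 6 measured targets and feedback genes, 5 had less RNA in siIRE1a cells and 3 had fewer footprints, with median log2 changes of −0.16 and −0.0055. Among all 10504 genes, 5375 had less RNA and 7132 had fewer footprints. TE passed the authors' test for HEY1 alone among the 5 of these genes with an adjusted p, and the other 4 had adjusted p from 0.120 (NRARP) to 0.742 (HEY2) in the authors' deposited table.

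Summed over HES1, HES4, HEY1, HEY2 and HEYL, RNA came to 6.69 in siCon cells and to 5.16 after the siIRE1a siRNA. HEY1 made up 49.0% of that sum in siCon and 26.6% in siIRE1a cells, and HES4 made up 20.9% and 38.9%. Without HEY1 the sum was 3.41 and 3.79. In footprints the sum was 27.2 and 26.7, with HEY1 at 38.2% and 28.5% and HES4 at 30.5% and 40.5%. HES4 thus had more RNA and more footprints than HEY1 in siIRE1a cells and less of both in siCon cells. These sums take the values as per-length abundances, which their unit does not state.

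**Figure D1:**
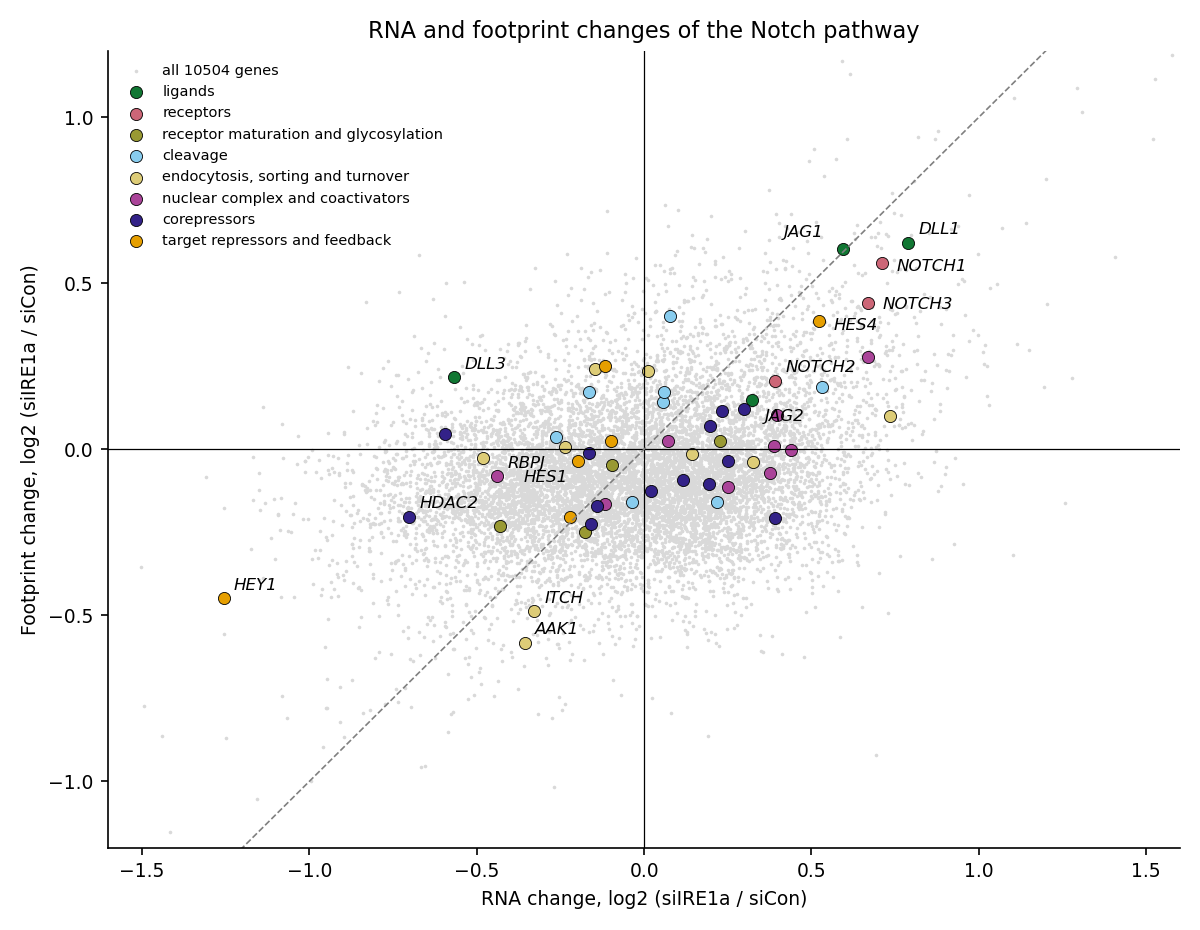
Log2 RNA change (x axis) against log2 footprint change (y axis), siIRE1a over siCon, for 10504 genes (grey, those within the axis limits) and for the 56 measured genes of the wider Notch list coloured by role; the dashed line marks equal changes. JAG1 lies on that line, the receptors lie just under it at upper right, and HEY1 lies at far left with an RNA change of −1.26 and a footprint change of −0.45.

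The wider list named 74 pathway genes by role, of which 56 were measured, the 8 members included. Over these 56 the median log2 change was 0.065 in RNA and 0.0081 in footprints, beside −0.011 and −0.082 for all genes. RNA was above 0 in 32 and below 0 in 24, and footprints in 29 and 27. Among all 10504 genes, RNA was above 0 in 5129 and below 0 in 5375, and footprints in 3372 and 7132. Without the 8 members the medians were 0.057 and 0.0031 over 48 genes. The measured ligands and receptors, 7 genes, centred on 0.59 for RNA and 0.44 for footprints (medians), and all 7 had more footprints. They are the members JAG1, JAG2, NOTCH1, NOTCH2 and NOTCH3, picked with their values known, plus DLL1 and DLL3, which lay low. Their median GC content was 62.9%, against 47.9% for all genes. With the GC trend described below removed, their medians were 0.43 for RNA and 0.52 for footprints. These medians describe the list and are not tested against other genes.

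The 8 measured genes of receptor cleavage, which include the proteases ADAM10 and ADAM17 and the subunits of γ-secretase, centred on an RNA change of 0.057 and a footprint change of 0.16 (medians). Footprints of 6 of them were above 0, as were those of 3372 of all 10504 genes. APH1B, a scaffold subunit of γ-secretase, had the largest footprint difference, from 1.61 to 2.12 (log2 0.40), with RNA of 0.124 and 0.131. Its paralog APH1A went the other way, from 7.78 to 6.96 in footprints (log2 −0.16) and from 1.204 to 1.17 in RNA (log2 −0.037). None of these 8 passed the authors' TE test, with adjusted p from 0.101 to 0.804 in the authors' deposited table.

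Genes that mature and glycosylate the receptor were few, with 4 measured. FURIN, the protease of the first receptor cleavage, had RNA of 1.02 and 1.19 (log2 0.23) and footprints of 1.68 and 1.71 (log2 0.026). RFNG, a fringe glycosyltransferase that modifies Notch sugars, had footprints of 1.44 and 1.21 (log2 −0.25). Adjusted p in the authors' deposited table lay between 0.459 and 0.889 for the 4 genes.

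Among the 9 measured genes of endocytosis, sorting and turnover, MIB1 and ITCH are ubiquitin ligases, the first acting on the ligands and the second on the receptor. MIB1 RNA was 0.726 and 0.520 (log2 −0.48) and its footprints 2.40 and 2.36 (log2 −0.025). TE of MIB1 rose by 0.49 on the log2 scale in the authors' deposited table (adjusted p = 0.0404). ITCH footprints were 3.21 and 2.29 (log2 −0.49), with RNA of 0.625 and 0.498 (log2 −0.33), and its TE change of −0.14 did not pass (adjusted p = 0.560 in the authors' deposited table). NUMB, which directs the receptor to lysosomes, had footprints of 1.13 in both groups. The kinase gene AAK1, mentioned after its values were seen, had the lowest footprint change of the whole list (log2 −0.58, from 0.546 to 0.365).

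The nuclear complex and its coactivators centred on an RNA change of 0.38 and a footprint change of −0.0010 (medians over 9 genes). With the GC trend described below removed, these medians were 0.21 and 0.071. RNA of the acetyltransferase EP300 was 1.53 and 2.003 (log2 0.39) while its footprints were 2.01 and 2.02, and its TE fell by 0.36 in the authors' deposited table (adjusted p = 0.0436). CREBBP, its paralog, had RNA of 1.76 and 2.32 (log2 0.40) and footprints of 2.40 and 2.58 (log2 0.10), and its TE did not pass (log2 −0.28, adjusted p = 0.107 in the authors' deposited table). SNW1, a spliceosome protein that also binds RBPJ, had footprints of 4.997 and 4.46 (log2 −0.16). RBPJ and SNW1 were the 2 genes of this group with less RNA in siIRE1a cells.

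Corepressors that bind RBPJ in the absence of Notch, or that act with the HES and HEY proteins, centred on an RNA change of 0.12 and a footprint change of −0.092 (medians over 13 genes). The histone deacetylases HDAC1 and HDAC2 went opposite ways in RNA, from 2.27 to 2.97 (log2 0.39) and from 1.42 to 0.871 (log2 −0.70), and alike in footprints, from 20.3 to 17.6 and from 26.3 to 22.8 (log2 −0.21 and −0.20). In the authors' deposited table, TE of HDAC1 fell by 0.59 (adjusted p = 0.00283) and TE of HDAC2 rose by 0.52 (adjusted p = 0.00170). CIR1, a corepressor named for its interaction with RBPJ, had RNA of 1.11 and 0.736 (log2 −0.59), footprints of 1.91 and 1.97, and a TE that rose by 0.67 in the authors' deposited table (adjusted p = 0.0259). TLE4, a Groucho family corepressor recruited by HES proteins, had footprints of 2.29 and 2.48 (log2 0.12).

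Of the 51 list genes with an adjusted p in the authors' deposited table, 4 had higher TE (HEY1, CIR1, HDAC2 and MIB1) at an adjusted p under 0.05, against 5.90% of all 8878 tested genes. The 2 with lower TE were HDAC1 and EP300, against 4.62% of all tested genes. Of the 8 members, 7 were tested and HEY1 alone passed. In 5 of these 6 genes the RNA difference ran from 0.39 (EP300) to 0.70 (HDAC2) in size on the log2 scale, and the footprint difference was at most 0.21. The exception was HEY1, whose footprints also differed by −0.45. Because TE is footprints over RNA, a call favours genes with such a gap. The share of this pattern among all called genes is not given.

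**Figure D2:**
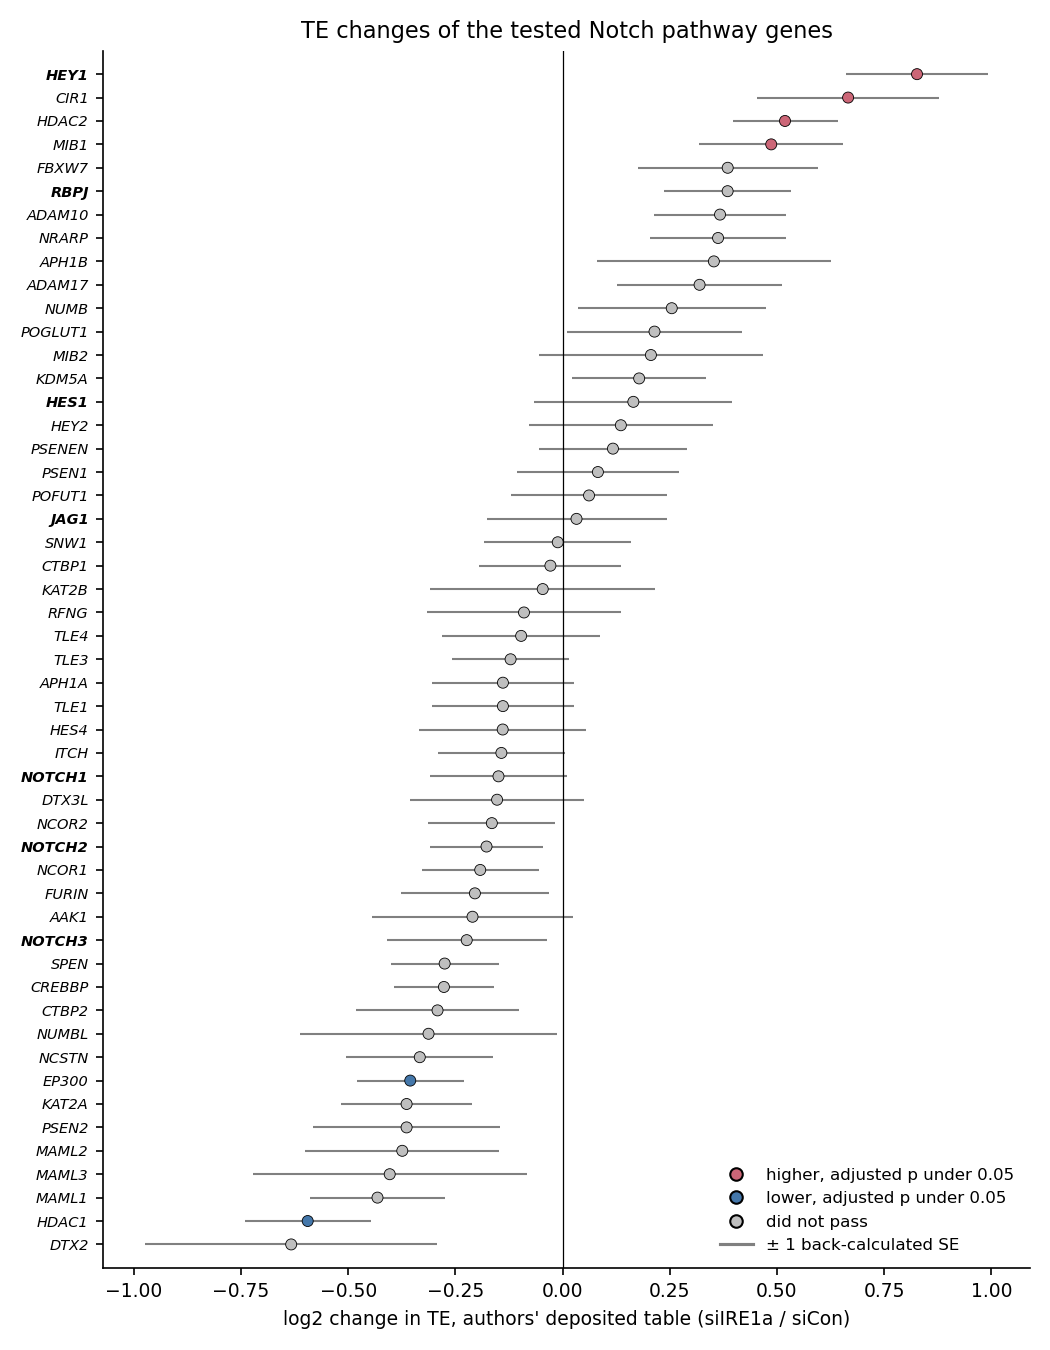
Log2 change in TE from the authors' deposited table (x axis) for the 51 list genes with an adjusted p, members in bold, with bars of 1 back-calculated standard error to each side. HEY1 is the topmost gene at 0.83, CIR1, HDAC2 and MIB1 follow as the other genes with higher TE, HDAC1 and EP300 are the genes with lower TE, and the receptors lie between −0.22 and −0.15.

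RNA changes over the whole table moved with the base composition of the transcript (Spearman's rho 0.626 with GC content over 10440 genes, which are not independent replicates), and the members span that range. RBPJ had a GC content of 38.0%, HEY1 of 47.4%, NOTCH2 of 49.4%, JAG1 of 49.6%, HES1 of 49.9%, NOTCH1 of 62.9%, NOTCH3 of 63.1% and JAG2 of 64.0%. With the genes ranked by GC content into 5 bins of 2088, the lowest bin holds RBPJ, and there the median RNA change was −0.37, and in the highest, which holds JAG2, NOTCH1 and NOTCH3, it was 0.22. The middle bin, which holds HEY1, HES1, JAG1 and NOTCH2, had a median of 0.0052. Footprint changes hardly followed GC content (rho −0.043).

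Set against genes of like GC content, RBPJ lay near the middle and HEY1 near the bottom. The RNA change of RBPJ was −0.061 with the GC trend removed, and before that step 38.6% of genes in its bin had a lower one. HEY1 kept a change of −1.24, and before that step only 2 of the 2088 genes in its bin were lower. JAG1 kept 0.54, NOTCH1 0.47, NOTCH3 0.43 and NOTCH2 0.35, while JAG2 went to 0.088 and HES1 to −0.26. In the same bins, the footprint change of JAG1 lay above that of 99.3% of genes, NOTCH1 above 98.5%, NOTCH3 above 97.6%, NOTCH2 above 89.8% and JAG2 above 87.2%. The footprint change of HEY1 lay above that of 2.49%. How much of each RNA difference belongs to base composition was not tested.

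With the GC trend removed and the test repeated with back-calculated standard errors, TE of HEY1 still passed (log2 0.85, adjusted p = 1.41e-04). That value, too, contains the RNA value by which HEY1 was chosen and adds no independent evidence. Over all 8825 genes in that fit, 73 were called higher and 42 lower, against 524 and 410 before. Of the other 5 list genes called before, HDAC1 was still called, and EP300, CIR1, HDAC2 and MIB1 were not, while NRARP was added among genes with higher TE. The corrected TE changes of NOTCH1 and NOTCH3 turned positive, at 0.16 and 0.088, with adjusted p of 0.826 and 0.947.

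**Figure D3:**
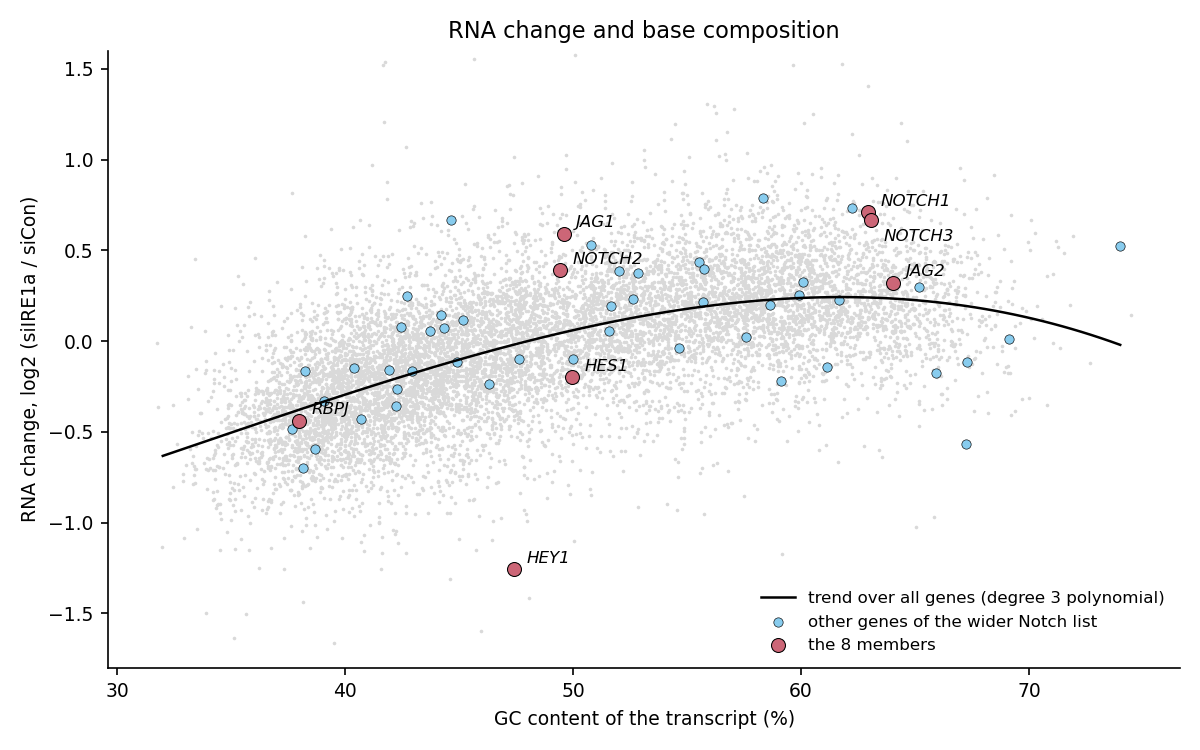
Log2 RNA change, siIRE1a over siCon (y axis), against GC content of the transcript in percent (x axis) for 10440 genes (grey, those within the axis limits), the wider Notch list (blue) and the 8 members (red), with the trend over all genes as a line. RBPJ lies close to the line, JAG1 and the receptors lie above it, and HEY1 lies 1.24 below it.

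The members also differed in the build of their mRNA. Coding sequences were 7668 bases for NOTCH1, 7416 for NOTCH2, 6966 for NOTCH3, 3717 for JAG2 and 3657 for JAG1, but 1461 for RBPJ, 915 for HEY1 and 843 for HES1, against a median of 1464 over all genes. Among the members, those with more RNA and footprints had the longer coding sequences, but the members were picked with their RNA values known. In the wider list, genes with long coding sequences lay on both sides. CREBBP (7329 bases) had more RNA and footprints (log2 0.40 and 0.10). AAK1 (2886 bases, log2 −0.36 and −0.58) and ITCH (2589 bases, log2 −0.33 and −0.49) had less of both. Whether coding length goes with either change over all genes was not tested. The letters ATTTA, the core of AU-rich elements that can mark short-lived mRNAs, occurred 7 times in the 1178-base 3′ UTR of HEY1 and 0 times in the 499-base 3′ UTR of HES1. RBPJ had 9 occurrences in 4121 bases, JAG1 9 in 1814, NOTCH2 7 in 3753, NOTCH1 6 in 1638, NOTCH3 4 in 1624 and JAG2 1 in 1714. HEY2, outside the members, had 6 in 1467 bases and an RNA change of −0.10. Counts over all genes are not given, and whether these letters take part in any RNA difference was not tested.

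Genes whose 3′ UTR holds GGACCTA or GACCTAA had lower values in siIRE1a cells in earlier work on these same tables, so the list was searched for both, on the mRNA strand. They were found in 9.06% of genes, those whose 3′ UTR is shorter than 50 bases left aside. Their median change was −0.21 in RNA and −0.14 in footprints, beside 0.0046 and −0.076 for the rest. Because the letters were taken from earlier work on these same values, this difference supports nothing further. No adjustment for 3′ UTR length or GC content was made. The 3′ UTR of HEY1 held neither GGACCTA nor GACCTAA. Among the members JAG2 alone held one, and in the list 6 genes did. The sites of JAG2, the ITCH ligase gene and ADAM10, from GENCODE 29 transcripts, are shown with the 7 letters in capitals, since their footprints differed in direction.
JAG2: tgtcggtgGGACCTAcggtggtc
ITCH: tcatttagGGACCTAgaaatatt
ADAM10: tgtagtaaGACCTAAttattatt

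The site of JAG2 lay on chromosome 14 at base 507 of a 3′ UTR of 1714, that of ITCH on chromosome 20 at base 2158 of 3599 and that of ADAM10 on chromosome 15 at base 3161 of 8740. Footprints of ADAM10 were 4.81 and 5.43 (log2 0.17) and those of JAG2 differed by 0.15, whereas those of ITCH differed by −0.49. Footprints of the other 3 genes with a site, APH1A, KDM5A and NCOR1, differed by −0.16, −0.0098 and −0.092. Whether these letters take part in any of these differences was not tested.

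The genes most like HEY1 were sought by the distance between log2 RNA and footprint changes, over 2 values per gene, among the 2123 genes averaging 1 or more in each assay. The nearest was RDH14, a retinol dehydrogenase gene, at RNA −1.10 and footprints −0.33 (distance 0.19). AZIN1, which encodes an inhibitor of antizyme in the polyamine system, followed at −1.11 and −0.27. Next came LDHB, a lactate dehydrogenase subunit, at −0.99 and −0.41. C16orf87 (−1.25 and −0.18) and the initiation factor gene EIF1AX (−1.15 and −0.18) completed the 5. All 5 had less RNA and fewer footprints in siIRE1a cells, as the measure requires, and none belongs to the pathway list. The GC content of these genes ran from 35.1% in EIF1AX to 50.03% in RDH14, and with the GC trend removed their RNA changes lay between −1.16 (RDH14) and −0.65 (EIF1AX).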

How the data were processed

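RNA-seq and Ribo-seq of HEK293A cells were used as deposited. Per the file headers, the authors' table held 1 footprint and 1 RNA abundance per group and gene, an abundance whose unit is not given in the sources used here, and TE as their ratio. Per gene, the authors' deposited table of the TE comparison gives an adjusted p-value and a change on the log2 scale, and its name refers to DESeq2. Its model, read counting and combination of replicates are not given in the sources used here. Per the submitters' processing notes, Bowtie 1.1.2 and hg19 (GRCh37) were used. A deposited run summary held counts of clusters and a quality score per library. Sample descriptions give the siCon samples as RNA-seq and the siIRE1a samples as Ribo-seq, so assays were taken from column names. Nothing says that the samples of a group were separate cultures.

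Each table had 10522 entries, and 9 symbols listed more than once were left out. Changes are log2 ratios without a pseudocount, since no value was 0. A gene was called at a deposited adjusted p under 0.05, and 1626 genes had none. Planned count models could not be run, as the tables hold no counts per replicate. Standard errors were back-calculated from the adjusted p (two-sided normal test, Benjamini-Hochberg adjustment), with the median of 20 abundance bins where p was 0.5 or more, and the steps were tested on simulated data. GC content and UTRs came from 1 GENCODE 29 transcript per gene (99.4% of genes matched by symbol), the GC trend being a polynomial of degree 3. Coordinates are GRCh38 and belong to the reference, not to the authors' build. The rule for named genes took the 8 members, ERN1, list genes called for TE, the largest rise and fall per role and assay at a mean of at least 1, and the 5 genes nearest to HEY1. Members, lists and the 1.5-fold line were chosen with earlier results of these data known. Calculations used Python 3.11.15, numpy 2.4.6, pandas 2.3.3, scipy 1.17.1 and matplotlib 3.10.9.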

Additional observations from a re-analysis of the deposited data

How the results depend on the processing

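No paired analysis was possible because the tables hold 1 value per group and assay, and for the same reason no replicate could be left out and no count test run. A change without a test was taken as moved when it differed by more than 1.5-fold from the main value. By that measure 45 alternatives for RNA changes of members left them in place and 3 moved them, all at a pseudocount of 5, which brought NOTCH1 to 0.073, NOTCH3 to 0.034 and HEY1 to −0.38. Under the other 5 alternatives HEY1 RNA lay between −1.24 and −0.85. The measure says little on small changes, which can almost vanish and still count as left in place. At a pseudocount of 5, JAG1 RNA went from 0.59 to 0.043, that of NOTCH2 from 0.39 to 0.046 and that of JAG2 from 0.32 to 0.0027. RBPJ RNA went from −0.44 to −0.061 with the GC trend removed. For footprints, 43 stayed by the same measure, among them NOTCH3 from 0.44 to 0.047 at a pseudocount of 5, and 5 turned sign. Those of RBPJ became 0.011 with quantile normalization and 0.0013 with median centring, and those of HES1 became 0.061, 0.045 and, with the GC trend removed, 0.030. The median footprint change of the wider list became −0.0098 over the 41 genes with a mean of at least 1 and lay between 0.069 and 0.090 with quantile normalization, median centring and the GC trend removed. The matching RNA median went from 0.065 to 0.19 over the 17 genes with a mean of at least 1.

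For TE, RBPJ passed at an adjusted p under 0.1 (0.38, adjusted p = 0.0706) and after median centring (0.42, adjusted p = 0.0476) but had a change of 0.033 with the GC trend removed. NOTCH1 and NOTCH3 turned to 0.16 and 0.088 there. HEY1 passed under every alternative run for TE, but each of them contains the RNA value by which the gene was chosen. The thresholds of 0.01 and 0.1 were applied to the same deposited adjusted p (1.16e-04), so passing them adds nothing. Calls in the wider list were 2 higher and 1 lower at an adjusted p under 0.01 (202 and 134 over all genes), and 5 and 3 at one under 0.1 (772 and 693). They were 2 and 1 with the GC trend removed (73 and 42), and 5 and 1 with median centring (606 and 329), against 4 and 2 as deposited (524 and 410). Reads per gene are unknown, so the precision of low values such as those of JAG2, DLL1 and DLL3 cannot be given.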
